A study of Rattus norvegicus with 2 samples.

Results

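The solute carrier genes described here are all genes on the array whose platform symbol begins with Slc and a digit, apart from 8 that the selection left out (Slc25a1, Slc14a1, Slc7a1, Slc2a4, Slc6a2, Slc8a1, Slc29a1 and Slc4a1). They were 112 of the 4736 named genes, read by 162 probe sets. The rule selects by name and uses no measured value, but earlier results of these data were known when it was set. RNA came from mesenteric arterial branches of the first and second order in rats. The sham group was operated on without ligation, and the portal hypertension group had the portal vein partly ligated, which raises portal pressure before the liver. Each group was 1 pool of RNA from 20 rats on 1 Affymetrix RG_U34A array. The labels do not state strain, sex, age or the time after surgery.

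Solute carriers are membrane proteins that move sugars, amino acids, ions, metals, vitamins and many other solutes, either down a gradient or coupled to one, usually of sodium or protons. Families are numbered by sequence relation, so members of a family often share a substrate class. In an artery they feed the muscle and endothelium, set chloride, pH and calcium in the muscle cell, and clear transmitters released by perivascular nerves. Many other members are best known from kidney, liver, gut or brain.

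A single array stood for each group, which allows no test, so every difference compares 2 pools and leaves out the spread between rats. Signals are the deposited linear intensities. The floor, 330.9 intensity units, is the 40th percentile of all signals of both arrays and not a detection call. A probe set above it in both pools is called measured, and a ratio is the log2 of the portal hypertension signal over the sham signal. A gene's value is the median ratio over its probe sets that exceeded the floor in at least 1 pool, with lower signals set to the floor. A difference of 1.5-fold, 0.58 on the log2 scale, was the threshold for counting. Ratios of several probe sets of a gene scattered with an SD of 0.30 over 789 genes. Signals of different probe sets are not comparable with each other, so only the pools are compared. Sums over marker genes of a cell type use each gene's mean signal over all its probe sets, below the floor or not. In whole arteries, fewer cells of a type and less RNA per cell cannot be told apart.

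Most solute carrier genes with a value had a somewhat lower signal in the portal hypertension pool, and few were far apart. Of the 112 genes, 72 had a probe set measured in both pools, 6 exceeded the floor in 1 pool only, and 34 lay below it in both. The share below the floor, 30.4%, was close to the 29.2% of all named genes. Among the 78 genes with a value, 55 had a log2 ratio below 0 and 23 above it, that is 70.5% below 0 against 53.2% of all 3351 genes with a value. The median log2 ratio was -0.14 (quartiles -0.33 and 0.04), against -0.02 (quartiles -0.21 and 0.17) over all genes. Substrate class medians were below 0 in 7 of 9 classes, as the plot of ratios by class shows.

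Only 2 genes were at least 1.5-fold higher, 2.56% of those with a value, against 3.13% of all genes, and 5 were at least 1.5-fold lower, 6.41% against 5.04%. At 2-fold there was 1 of the 78 genes in each direction, against 0.328% of all genes higher and 0.776% lower. The 1.5-fold shares are near the background, so the counts past that threshold set nothing apart about the family. At 2-fold, 1 gene per direction is too few to set against a share. The higher genes were Slc5a6 and Slc27a2, and the lower ones Slc2a5, Slc22a2, Slc6a11, Slc1a2 and Slc6a5. All 7 rested on a single probe set with a value, and 6 of the 7 had a mean signal under 1000.

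**Figure D1:**
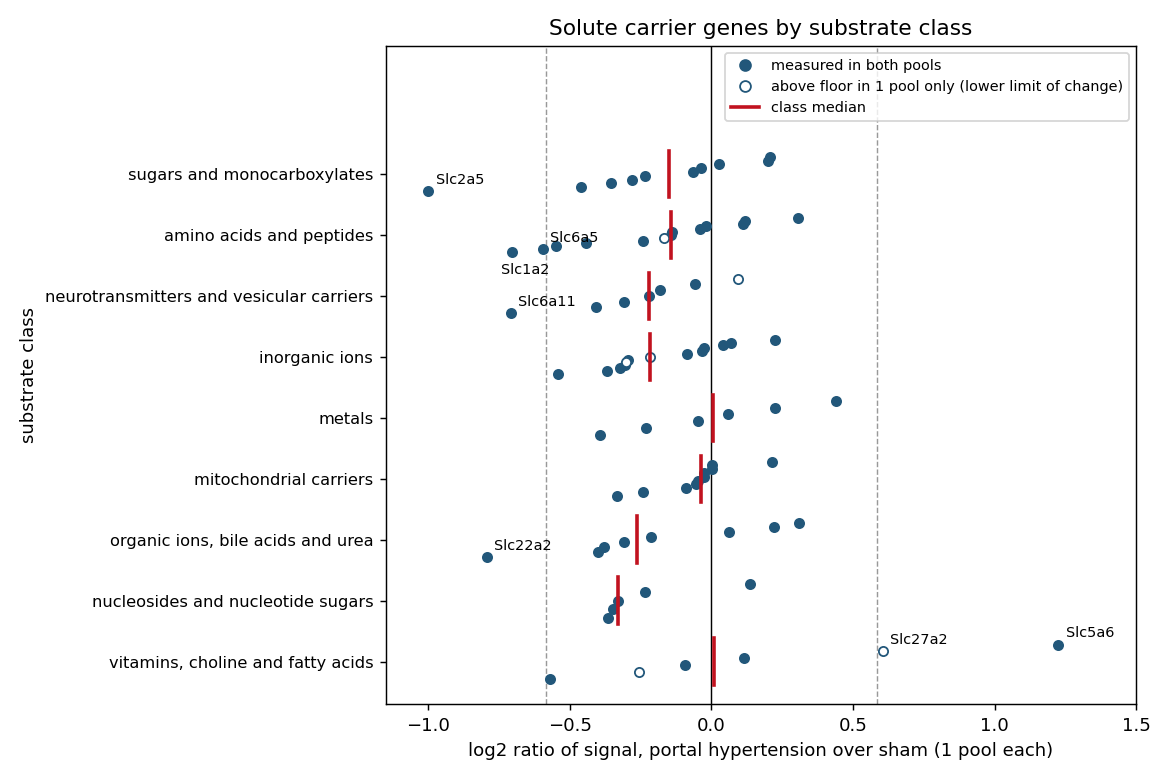
Each point is 1 solute carrier gene with a value, placed by its log2 ratio of portal hypertension over sham on the horizontal axis and by substrate class on the vertical axis. Filled points were measured in both pools, open points exceeded the floor in 1 pool only, red bars are class medians and dashed lines mark 1.5-fold. Slc5a6 and Slc27a2 lie to the right of the dashed lines, 5 genes lie to the left, and 7 of 9 medians are below 0.

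Ratios below 0 outnumbered those above 0 in both dim and bright genes, with a median farther from 0 in the dim ones. This split, at a mean signal of 1000, was chosen after the values were seen. Of 46 solute carrier genes under 1000, 34 had a ratio below 0 (73.9%), with a median of -0.22, against 55.8% and -0.05 for all 1381 genes in that range. Of the 32 genes at 1000 or more, 21 were below 0 (65.6%), with a median of -0.05, against 51.4% and -0.01 for all 1970. In the dim range 2 members were 1.5-fold higher and 4 lower, where 4.63% of all genes were higher and 8.11% lower. In the bright range 0 were higher and 1 was lower, where the shares of all genes were 2.08% and 2.89%.

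**Figure D2:**
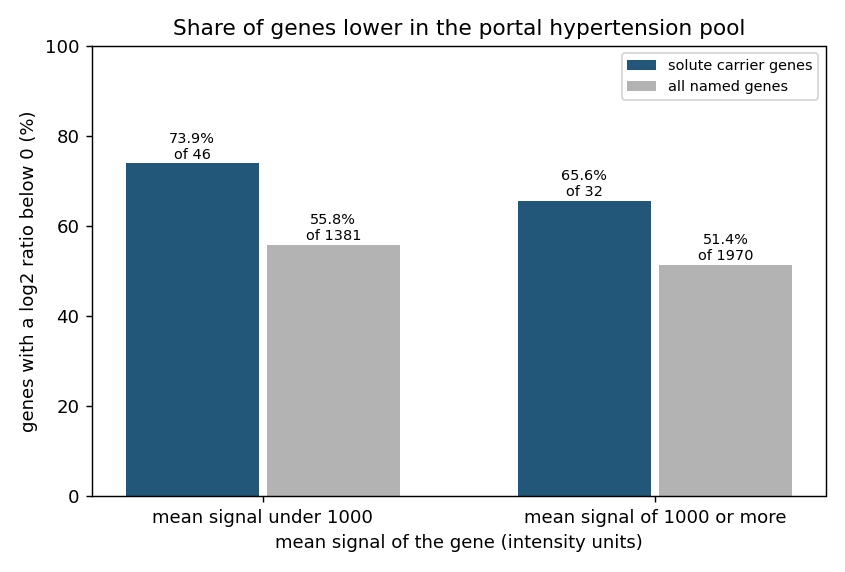
Bars give the percent of genes with a log2 ratio below 0 for solute carrier genes (blue) and all named genes with a value (grey), split at a mean signal of 1000 intensity units. The blue bars stand at 73.9% and 65.6% and the grey bars at 55.8% and 51.4%.

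Among carriers of vitamins and fatty acids were both genes past the threshold on the higher side, while the class as a whole was evenly divided. Slc5a6, the sodium-dependent transporter of biotin, pantothenate and lipoate, gave 424.7 in sham and 993.2 in portal hypertension, 2.34-fold higher. Its other probe set gave 166.8 and 104, below the floor in both pools and in the opposite order, so the direction of Slc5a6 rests on 1 probe set. Slc27a2, a very long chain acyl-CoA synthetase that also takes up fatty acids, had 247.2 and 503.7, at least 1.52-fold higher given the floor. Slc27a1, its relative in muscle and fat, had 1415.6 and 1533.3, a log2 ratio of 0.12. Slc19a1, the reduced folate carrier, had 1701.8 and 1506 on one probe set and 1067.2 and 1058 on the other. On the lower side, Slc23a3, an orphan relative of the vitamin C transporters, had 598.1 and 402.8, a log2 ratio of -0.57 just short of the threshold. The riboflavin transporter gene Slc52a3 had 395.4 and 266.3, and Slc44a4, a choline transporter-like gene, was below the floor. Over the 6 genes with a value the median was 0.01, with 3 above and 3 below 0.

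Sugar and monocarboxylate carriers with a value were lower in 7 of 10 genes, led by the fructose transporter. Slc2a5, which carries fructose across the membrane, had 762.8 in sham and 381.4 in portal hypertension, 2-fold lower, with the latter close to the floor. A second Slc2a5 probe set was below the floor in both, at 80.7 and 53. Both probe sets carry an identifier that marks sharing between transcripts. Of the glucose transporters, Slc2a1, the basal form, had 717.8 and 823.9 (log2 ratio 0.20), and Slc2a3, the high-affinity form, had 948.8 and 966.2 (0.03). The second probe set of each was below the floor, and so was Slc2a2, the form of liver and pancreatic islets. Both glucose carriers with a value thus differed by less than the probe set SD of 0.30. Of 5 markers of intestinal epithelium on the array, where Slc2a5 is best known, 4 (Fabp1, Fabp2, Si and Cdh17) were below the floor throughout. The other, Lct, had a log2 ratio of -0.37. The sums were 1379.7 (sham) and 1293.2 (portal hypertension), most of it from Lct. The part of intestinal epithelium in these differences was not tested.

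The lactate carriers split by isoform. Slc16a1, which takes up or releases lactate in most cells, was slightly higher on both probe sets, with 2139.8 and 2293.5 on one and 1086 and 1349.8 on the other. Slc16a3, the lactate exporter of glycolytic cells, was lower, with 823.1 and 597.8 (log2 ratio -0.46). Slc16a7 differed little, at 1085.6 and 1058.7, and Slc16a8, known from retinal pigment epithelium, had 592.3 and 487.8. No difference among these 4 genes reached 1.5-fold.

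Of the sodium-coupled sugar carriers, Slc5a1, the intestinal glucose cotransporter, had 1260.8 and 1197.1 on one probe set and 648.5 and 494.6 on the other, and Slc5a3, the inositol cotransporter, had 808.4 and 772.6. Slc37a4, which brings glucose 6-phosphate into the endoplasmic reticulum, was lower on both probe sets, with 1714.1 and 1215 (log2 ratio -0.50) and 1176.7 and 1013.7. Slc5a2, Slc13a2, Slc13a3, Slc16a6, Slc16a12 and Slc37a1 lay below the floor. The class median was -0.15 over 10 genes, with 7 below 0 and 3 above, where 53.2% of all genes were below 0. Slc16a7 (-0.04) and Slc5a3 (-0.07) turned sign after quantile normalization and after a loess trend was removed. The class median came as close to 0 as -0.04 under other processing choices.

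Amino acid carriers included 2 of the genes past the threshold, both best known from nervous tissue. Slc1a2, the main glutamate transporter of astrocytes, had 846.5 and 519.4, 1.63-fold lower. Its other 3 probe sets lay below the floor, with signals from 40.6 to 236.4, and did not share a direction. Slc6a5, a glycine transporter of nerve terminals, had 626.2 and 414.3, 1.51-fold lower, which fell short of the threshold after quantile normalization (log2 ratio -0.53) and after a loess trend was removed (-0.55). Its relative Slc6a9 had 738.4 and 623.8. Among other glutamate transporters, Slc1a3 had 1717 and 1839.5 on its measured probe set against 429.6 and 312.2 on another that lay below the floor in the portal hypertension pool, and Slc1a1 had 443.8 and 437.8.

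The partners of the large neutral amino acid transporter went opposite ways. Slc7a5, the subunit that carries leucine and related amino acids, had 1427.7 and 974.9, a log2 ratio of -0.55. Slc3a2, the heavy chain that brings it and several sister subunits to the surface, was higher on both probe sets, with 1999.5 and 2625.8 (log2 ratio 0.39) and 4540.7 and 5278.9 (0.22). Slc3a1, the heavy chain of the cystine transporter, had 1622.7 and 1471.5. None of the 3 genes reached 1.5-fold.

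None of the remaining amino acid and peptide carriers reached 1.5-fold. Slc6a20a, an imino acid transporter gene, had 602 and 442.5 (log2 ratio -0.44), and Slc6a18 had 531.1 and 576.6. The cationic amino acid transporter gene Slc7a3 had 371.2 and 272.7, and Slc7a2, another of that kind, was below the floor. Of the proton-coupled peptide transporters, Slc15a2 had 838.4 and 815.8, Slc15a4 had 624.5 and 674.4, and the intestinal form Slc15a1 was below the floor. Slc1a6, Slc6a6, Slc6a7, Slc6a15 and Slc6a17 were below it too. Over 13 genes the class median was -0.14, with 10 below 0.

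Transmitter carriers with a value were lower in 6 of 7 genes. Slc6a11, a GABA transporter, had 1353.3 and 828.4, 1.63-fold lower, and was the 1 gene past the threshold with a mean signal of 1000 or more, on a probe set marked as shared. Slc6a4, the serotonin transporter, was lower on both probe sets, with 2965.9 and 2497 (log2 ratio -0.25) and 574.6 and 388 (-0.57). Slc18a3, which loads acetylcholine into vesicles, gave 1104.7 and 718.3 on one probe set (-0.62) and 924.7 and 928 on the other (0.01), so its probe sets disagreed by more than the SD of 0.30.

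Slc6a3, the dopamine transporter gene, had 576.8 and 495.3, Slc32a1, the vesicular GABA and glycine carrier gene, 444.7 and 392.2, and Slc6a8, the creatine transporter gene, 1119.2 and 1075. Slc18a2, which loads monoamines into vesicles, was the exception, with 235.6 and 353.4, barely above the floor in the portal hypertension pool. Slc6a13, Slc17a7 and Slc18a1 were below the floor. The class median was -0.22. Among 7 nerve markers on the array, 6 had a value, with 4 below 0, 2 above and 0 past 1.5-fold. Their signals summed to 23195 (sham) and 19065.4 (portal hypertension), most of it from Npy with 20118.3 and 16002.4, and the noradrenaline-synthesising enzyme gene Dbh lay under the floor throughout. The part of nerve tissue in these differences was not tested.

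**Figure D3:**
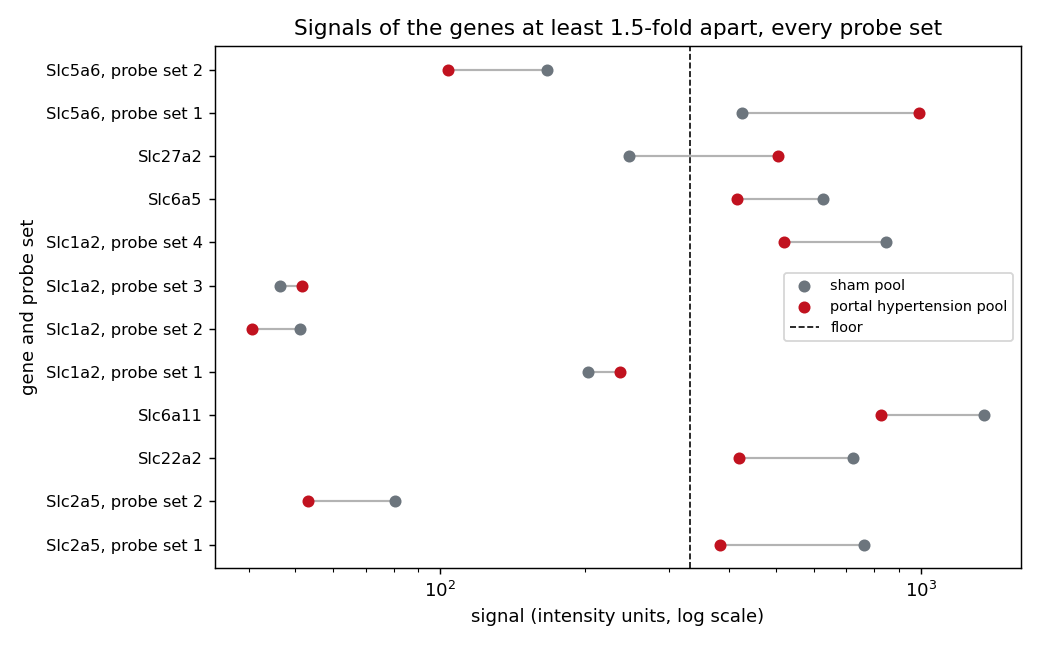
Signals of every probe set of the 7 genes at least 1.5-fold apart, on a log intensity axis, with the sham pool in grey, the portal hypertension pool in red and the floor of 330.9 dashed. Each gene has 1 probe set above the floor in at least 1 pool, and the other probe sets of Slc5a6, Slc1a2 and Slc2a5 lie below it in both pools.

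Carriers of inorganic ions were lower in 10 of 13 genes, and 0 passed 1.5-fold. Slc12a2, the sodium, potassium and chloride cotransporter that loads chloride into vascular muscle, was lower on both measured probe sets, with 2361.1 and 1720.3 (log2 ratio -0.46) and 420.2 and 345.4 (-0.28), while 2 further probe sets did not exceed the floor. The potassium and chloride cotransporters that move chloride out differed little, Slc12a4 with 851.3 and 959.3 and with 1381.8 and 1347.6, and Slc12a7 with 1172 and 1206.2. The renal cotransporter Slc12a3 had 384.7 and 135.1 on the probe set that exceeded the floor in the sham pool.

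For bicarbonate and pH, Slc4a3, an anion exchanger of excitable and muscle cells, had 1170.4 and 803.8, a log2 ratio of -0.54. Slc4a7, the sodium bicarbonate cotransporter of vascular muscle, had 5882.5 and 5748.3, and the exchanger Slc4a2 had 759.4 and 715.8. Of the sodium and calcium exchangers, Slc8a2 had 1053.9 and 852.2 and Slc8a3 had 408.1 and 253.3. The sulfate transporters Slc26a1 and Slc26a2 were both lower, with 641.8 and 523.6 and with 472.1 and 377.6.

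Of the phosphate carriers, Slc20a2, a widely expressed phosphate importer, had 650.4 and 759.4 (log2 ratio 0.22). Slc34a1, the renal form, had a median of -0.03 over 4 probe sets, of which 2 were measured in both pools. The 4 ratios ranged from -0.22 (949.5 and 813.2) to 0.57 (252.8 and 492.2). The value of 0.57 is a lower limit, because that sham signal was set to the floor. The class median was -0.22. Slc4a4, Slc5a5, Slc9a2, Slc9a3, Slc9a4, Slc12a1, Slc12a5, Slc13a1, Slc17a1 and Slc24a2 were below the floor.

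Metal carriers were evenly divided, with 3 of 6 genes above 0 and a median of 0.01. Slc40a1, ferroportin, the exporter of iron from cells, was lower on both probe sets, with 960.7 and 622.1 (log2 ratio -0.63) and 1034.7 and 927 (-0.16). Slc11a2, which imports iron, had 1605.2 and 1764.3 on one measured probe set and 641.5 and 633.3 on the other. Slc41a3 and Slc41a2, of the magnesium carrier family, were higher, with 851.6 and 1155.7 (0.44) and with 840.8 and 982.3 (0.22). The zinc transporter gene Slc30a2 had 598.2 and 509.2, Slc30a4 had 1321.3 and 1279.7, and Slc30a1 was below the floor.

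Mitochondrial carriers differed little, with 10 of 11 genes measured and 0 past 1.5-fold. The exchangers of ADP for ATP were almost equal in the 2 pools, Slc25a4 with 41803.7 and 41020.7 and Slc25a5 with 36353.7 and 35171.5. Slc25a3, which imports phosphate for ATP synthesis, had 31486.7 and 36500.2, a log2 ratio of 0.21. Slc25a11, the oxoglutarate carrier, had 2983.5 and 2832.5 on one probe set and 2298.2 and 2425.4 on the other, in opposite order. Slc25a20, which imports acylcarnitines for fatty acid oxidation, had 2430.4 and 2281.3.

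Slc25a10, the dicarboxylate carrier, was lower on both measured probe sets, with 1196.4 and 999 and with 1812.7 and 1549.9, and Slc25a30 had 3395.7 and 2698.2 (log2 ratio -0.33). Slc25a14 had 1000.6 and 1131.5 on one probe set and 844 and 720 on another of the same source sequence, log2 ratios of 0.18 and -0.23. Slc25a26, which imports S-adenosylmethionine, had 2477.8 and 2387, and Slc25a17, which is a peroxisomal member of this family, had 10257.4 and 10280.7. Slc25a23 was below the floor. The class median was -0.04.

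Carriers of organic ions, bile acids and urea included the lowest gene after Slc2a5. Slc22a2, an organic cation transporter of the kidney, had 724 and 418.1, 1.73-fold lower. Slc22a3, the organic cation transporter that clears monoamines outside nerves, had 792.4 and 683 on one probe set and 145.6 and 132.7 on the other. Slc22a7, an organic anion transporter of liver and kidney, had 3199.5 and 2459.3, but a second probe set of the same source sequence gave 141.1 and 172.1. Slc14a2, the renal urea transporter, had 3941.8 and 2987 on one probe set and 43.2 and 110.4 on the other. For Slc22a3, Slc22a7 and Slc14a2 the lower signal therefore rests on 1 of 2 probe sets that disagree about whether the transcript exceeded the floor.

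In the other direction, Slc22a5, the carnitine transporter, had 734.1 and 910.6, a log2 ratio of 0.31, and Slc22a18 had 1472.7 and 1717.6 (0.22). Slc22a13 had 429.1 and 448.4. Slc10a2, the ileal bile acid transporter, was lower, with 626.3 and 505.1, but its other probe set was below the floor in both pools. Slc10a1, Slc22a6 and Slc22a25 were below the floor. The class median was -0.26 over 8 genes, with 5 below 0. Of 4 kidney tubule markers, which include Slc12a1 and Slc34a1, 2 had a value, Aqp2 (-0.57) and Slc34a1 (-0.03, close to 0). Over all 4 markers the sums were 1037.3 and 741, and Umod was at no time above the floor. All 4 hepatocyte markers on the array had a value, 2 above 0 and 2 below, with sums of 1202.7 and 1081.5. Their part in these differences was not tested.

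Carriers of nucleosides and nucleotide sugars were lower in 4 of 5 genes, with a class median of -0.33, and the 3 nucleoside carriers lay close together. The concentrative transporters Slc28a1 and Slc28a2, which take up nucleosides with sodium, had 1033.6 and 822.4 (log2 ratio -0.33) and 2275.8 and 1766.5 (-0.37). The equilibrative transporter Slc29a2 had 1780.4 and 1399.7 (-0.35). Slc35b1, an ATP carrier of the endoplasmic reticulum, was lower on both probe sets, with 12070 and 10385.6 and with 4051.7 and 3407.8. Slc35a1, which brings CMP-sialic acid into the Golgi, was the exception, with 5871.6 and 6459.7 (0.14), and Slc35f6 was below the floor. Each of these differences was under 1.5-fold.

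Measured probe sets of the same solute carrier gene scattered with an SD of 0.20, over 32 probe sets of 16 genes, against 0.30 over all genes. In 10 of the 16 genes the measured probe sets shared a direction (62.5%, against 57.2% of all such genes), and in 6 they did not. Of 37 members with more than 1 probe set, 19 had a measured probe set and another below the floor in both pools. For these genes, whether the transcript exceeded the floor depends on the probe set.

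**Figure D4:**
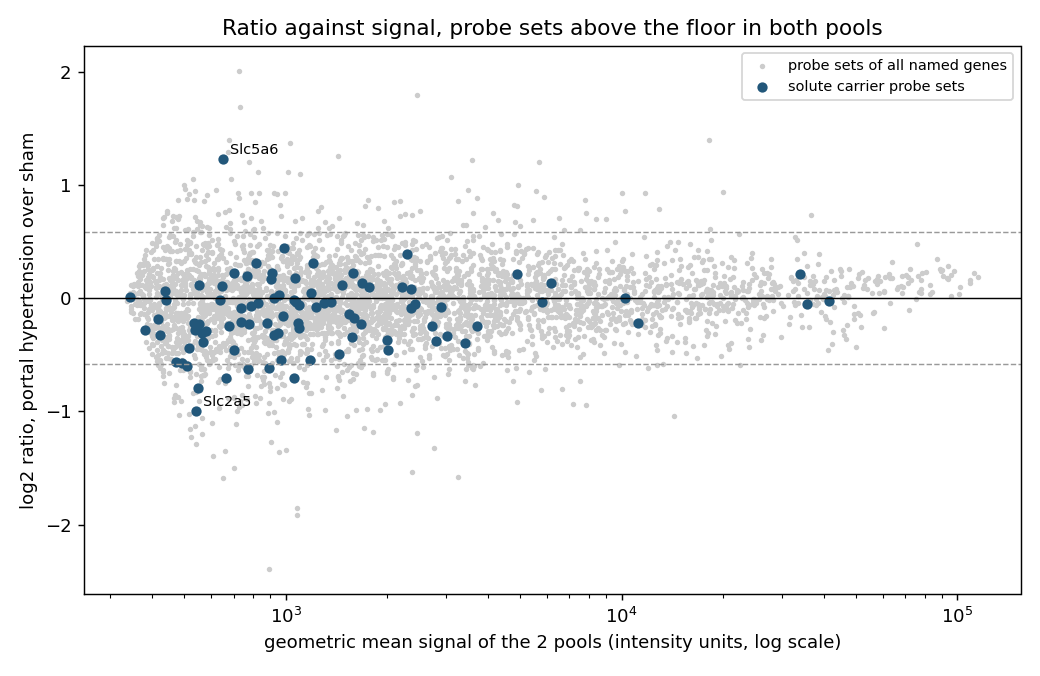
Each point is a probe set measured in both pools, placed by its geometric mean signal on a log axis and by its log2 ratio of portal hypertension over sham. Solute carrier probe sets are blue and those of all named genes grey, and dashed lines mark 1.5-fold. The blue points farthest from 0 are Slc5a6 above and Slc2a5 below, both at mean signals under 1000, where the grey points scatter most widely.

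Genes that escort, power or regulate these carriers went both ways. Of a list of 44 such partners and other transporter families, 23 were on the array and 14 had a value, with 6 above 0, 8 below, 0 past 1.5-fold and a median of -0.08. The value farthest from 0 was that of Abcc9, a subunit of ATP-sensitive potassium channels, at -0.54. Its measured probe sets had 2379.4 and 1634.4 and, almost equal, 3385.3 and 3349.7. Another had 640.5 and 219.3, below the floor in the portal hypertension pool. Bsg, which escorts the lactate carriers to the membrane, had 10045.5 and 11727.5, and Emb, which does so too, gave log2 ratios of -0.10 and -0.02. Stk39, a kinase that switches on Slc12a2, had 3227.7 and 2587.7 (-0.32) and 817.4 and 739.8 (-0.14). Oxsr1, a sister kinase that also activates Slc12a2, went the other way, with 420.9 and 458.5 (0.12). Sgk1, a kinase that raises the surface level of many carriers, had 1769.9 and 1656.8.

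The 3 beta subunits of the sodium pump, which maintains the gradient that sodium-coupled carriers use, had gene values below 0. Atp1b2 had 1015.4 and 933.6, Atp1b3 had 19079 and 17387.2, and Atp1b1 had 8480.6 and 8221.6 on one probe set against 1697 and 966 on another. Fxyd1, a regulator of the pump, was lower on both probe sets, at -0.39 and -0.20, and Fxyd2, another regulator, had 781.6 and 1077 (log2 ratio 0.46). From the organic anion family outside the Slc symbols, the prostaglandin transporter gene Slco2a1 had 995.2 and 1378.9 (log2 ratio 0.47) and Slco1a4 had 1185.8 and 1538.9 (0.38).

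The 2 pools also differed in markers of cell types around the artery. Adipocyte markers had ratios above 0 in 6 of 7 genes with a value, and they summed to 53031.4 (sham) and 66512.2 (portal hypertension). Fibroblast markers were above 0 in 6 of 6 genes, with sums of 205796.6 and 232493.8, and macrophage markers in 3 of 4, with sums of 16162.7 and 22070.6. Smooth muscle markers were above the floor in 6 of 6 genes and below 0 in 5 of them, with sums of 215361.5 and 205953.3. Of 6 endothelial markers on the array, Kdr and Vwf were below the floor, 3 of the other 4 were below 0, with a median of -0.44 and sums of 6107.6 and 5891. Icam2 (-1.13) and Nos3 (-0.78, with measured probe sets that disagreed) were past 1.5-fold lower and Edn1 (0.62) higher. Kcnmb1 of smooth muscle (-0.68, with probe sets at -1.04 and -0.33) was also past 1.5-fold lower, and Fcgr2b of macrophages (0.92) higher. The lists for adipocytes and nerve hold Slc2a4 and Slc6a2, which are not among the 112 genes. The part of these cells in the carrier differences was not tested.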

How the data were processed

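Each deposited value is the intensity of 1 probe set on 1 of 2 arrays, on a linear scale. How the authors corrected background and scaled the arrays is not given here. The mean without the lowest and highest 2% of values was 2504.3 (sham) and 2504.4 (portal hypertension), so values were used as deposited. The median signal was lower in the portal hypertension pool, at 557.0 (sham) and 525.7 (portal hypertension). Per the file headers, the arrays differed in fluidics module (2 and 1) and in noted cRNA amount (17 and 12.5 µg, each with a question mark), which cannot be told apart from the operation. Of 8799 probe sets, 59 controls were left out. Only probe sets with a single symbol gave gene values. Counted over all 8799, 308 had several symbols and 1473 had none. Among those with several symbols, 2 include an Slc name. Gene names are those of the platform annotation, and all 112 member symbols matched the GRCr8 RefSeq gene table. Members may be named whatever their value, and both signals are given for those 1.5-fold apart, for up to 3 of highest level in each class and for those whose probe sets disagree. Urea was placed with organic ions after the files were seen. The members, classes and lists were chosen with earlier results of these data known. Alternatives covered quantile normalization, loess (span 0.4), floor, probe set choice and threshold. Analyses used Python 3.11.15, pandas 2.3.3 and statsmodels 0.14.6. The calculation was tested on simulated data with large known differences in bright probe sets and little noise. That test does not cover dim signals or differences near 1.5-fold. The number of arrays limits the precision.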

Additional observations from a re-analysis of the deposited data

How the results depend on the processing

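The median log2 ratio of the solute carrier genes stayed below 0 under all 7 alternatives, from -0.12 with the probe set of highest level to -0.05 for a floor at the 60th percentile, while the median of all genes moved by at most 0.03. The share of members below 0 was 60.8% after quantile normalization (all genes 48.3%) and 64.1% after the loess (49.7%). A floor at the 60th percentile left 47 genes with a value, of which 0 were 1.5-fold higher and 1 lower. Using only probe sets above the floor in both pools left 1 gene higher, and the 2-fold threshold left 1 higher and 1 lower. A floor at the 20th percentile gave 7 of 95 genes lower, where 7.97% of all genes were. After quantile normalization or the loess 4 genes were lower, without Slc6a5. Leaving out shared probe sets kept 58 genes, with a median of -0.07 and 4 lower, and gave no value for Slc2a5 or Slc6a11. The 4 include Slc40a1, which passed 1.5-fold only here, on its remaining probe set (-0.63). Lowering the floor to the 20th percentile gave Slc5a6 a ratio of 0.29, since its other probe set enters. The same lower floor gave -0.24 for Slc1a2 and 1.03 for Slc27a2. At the 60th percentile Slc5a6 had 0.16. The sign turned under quantile normalization or the loess for 9 genes, all within 0.07 of 0, and class medians turned for metals, mitochondrial carriers and vitamins, choline and fatty acids under alternatives of floor or probe set choice. No paired analysis was possible because each group has 1 array. Nothing here measures the spread between rats.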
